A study of Mus musculus with 6 samples.

Results

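Polycomb proteins keep genes silent by modifying histones, and 10 genes for them were followed in mouse bone marrow cells: Ezh1, Ezh2, Eed and Suz12 of Polycomb repressive complex 2 (PRC2), Bmi1, Rnf2, Cbx2, Cbx7 and Cbx8 of Polycomb repressive complex 1 (PRC1), and Asxl1, a partner of the enzyme that removes the PRC1 mark. The genes were chosen by name, with earlier results of these data known, and all 10 were found among the 20097 genes in the deposited tables. Poly-A RNA was sequenced from bone marrow cells that carry c-Kit, the receptor of stem cell factor found on blood stem and progenitor cells. The labels put 3 libraries in a WT group and 3 in a Runx1 KO group, a knockout of the gene of the blood transcription factor RUNX1. The allele and the means of its disruption, the strain, age and sex of the mice, and whether each library came from its own animal are not given in the sources used here, so p-values measure the spread between these libraries, which may be technical.

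PRC2 places methyl groups on a lysine of histone H3. EZH1 and EZH2 are its alternative catalytic subunits, and EED and SUZ12 are the core subunits that an active complex needs. Canonical PRC1 binds that mark through a CBX chromodomain protein and ubiquitinates histone H2A through RNF2 or RING1, paired with BMI1 or its relative PCGF2. ASXL1 binds and activates BAP1, which takes ubiquitin off H2A again in the complex PR-DUB. In blood, BMI1 is known for the self-renewal of stem cells, CBX7 for stem cell maintenance, and EZH2, ASXL1 and RUNX1 as genes mutated in myeloid disease.

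Libraries held between 23297526 and 26793380 recovered reads, and 15410 genes were tested. Values are normalised read counts, that is reads divided by one size factor per library. The targeted gene goes against its label: Runx1 had 3109 ± 356 normalised reads in WT and 6399 ± 494 in the libraries labelled Runx1 KO (SD, n = 3), higher by 1.04 on the log2 scale (SE 0.10, limma adjusted p = 0.00163). The table per gene does not show whether part of the transcript was missing, so WT and Runx1 KO stand here for labels, and higher or lower is said of the libraries labelled Runx1 KO. Kit, which marks the sorted cells, was abundant in every library, but its level was not the same in the groups. Its mean was higher in Runx1 KO, with 8301 ± 280 normalised reads in WT and 12649 ± 1093 in Runx1 KO (SD, n = 3). Runx1 KO replicate 1 lay nearer to the WT libraries than replicates 2 and 3 did, at 22.8 on the first principal component against 64.5 and 60.8, with the WT libraries between -64.98 and -39.8. Of 10 genes that nearly all cells use, 0 rose and 6 fell in limma, where 10.6% and 11.3% of all genes did, and their median log2 change was -0.24. In bulk RNA, fewer cells of a type and less RNA per cell cannot be told apart.

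The transcripts of the core Polycomb machinery differed little between the groups, and 1 of the 10 genes, Cbx2, passed the test. All 10 passed the filter on low counts and were tested. Across all genes tested, limma called 3370 (21.9%) at an adjusted p under 0.05, 1631 (10.6%) higher and 1739 (11.3%) lower, so 1 call in 10 is near the background. Scaled to library totals, 63.5% of 3755 calls were higher, against 48.4% of the 3370. The median size of the log2 change, sign aside, was 0.10 over the 10 genes and 0.23 over all genes tested, or 0.17 over the 10121 tested genes with a mean of at least 200 normalised reads. The libraries of the groups did not overlap in 2 of the 10 genes, Cbx2 (higher) and Ezh2 (lower), and in 43.3% of all genes tested, 21.4% higher and 21.9% lower. At an unadjusted p under 0.05, 2 of the 10 passed, Cbx2 and Ezh1.

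**Figure D1:**
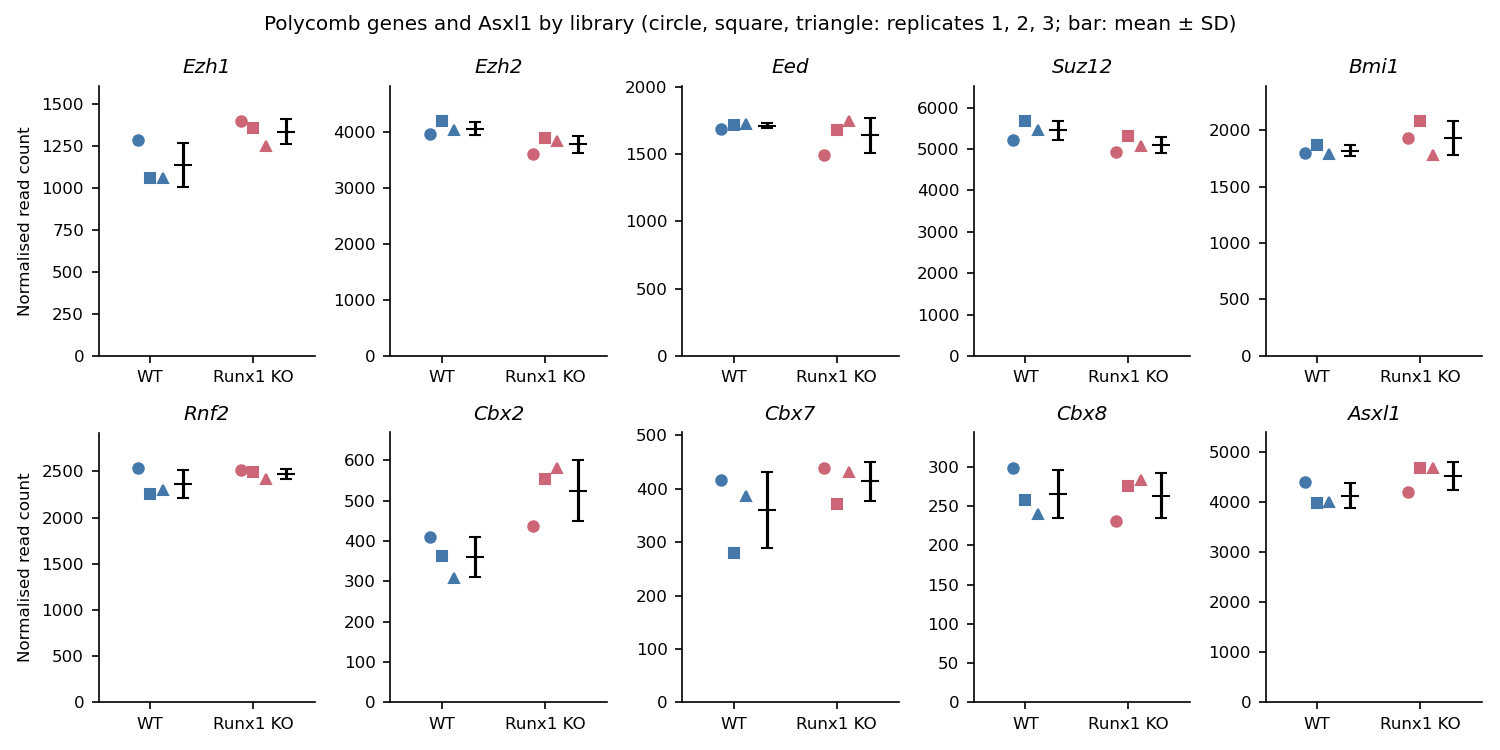
Normalised read count of the 10 genes in each library, by group, on axes that start at 0, with the mean ± SD beside the points. Cbx2 stands higher in all 3 libraries labelled Runx1 KO (438 to 582) than in those labelled WT (309 to 410), and the points of the other genes except Ezh2 overlap between the groups.

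Levels were also taken per kilobase of annotated exon. This length counts every annotated exon of a gene, whichever transcripts the cells make, so levels per kb compare genes only roughly. On this scale, Suz12 was the most abundant of the 10 in WT, at 1102 ± 45.8 normalised reads per kb (SD, n = 3). Ezh2, Rnf2 and Asxl1 followed at 609 ± 17.9, 573 ± 37.0 and 555 ± 32.6 per kb, with libraries that overlapped between neighbours in this order. Bmi1 at 458 ± 11.6 and Eed at 446 ± 4.88 per kb came next, and then, well below, Ezh1 at 153 ± 17.6. The CBX genes were lowest, with Cbx2 at 84.6 ± 11.8, Cbx8 at 72.2 ± 8.24 and Cbx7 at 55.58 ± 11.04 per kb, and the libraries of Cbx2 and Cbx8 overlapped. From Suz12 to Cbx7 the levels per kb spanned 19.8-fold in WT and 16.2-fold in Runx1 KO. In Runx1 KO the order kept Suz12 first and Cbx7 last, and Asxl1, Rnf2 and Ezh2 held places 2 to 4 at 608 ± 37.4, 600 ± 13.3 and 566 ± 22.8 per kb. The Runx1 KO libraries overlapped between Asxl1 and Rnf2, between Bmi1 and Eed, and between Cbx8 and Cbx7, so these neighbours were not separated.

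In PRC2, the 3 genes Ezh2, Eed and Suz12 did not pass the test. Ezh2 (chromosome 6, 47530139 to 47595341, minus strand, GRCm38), the catalytic subunit that predominates in dividing cells, had normalised read counts of 3963, 4197 and 4034 in WT replicates 1 to 3 and of 3609, 3895 and 3842 in Runx1 KO replicates 1 to 3. All libraries labelled Runx1 KO lay below all those labelled WT, by a small margin, with a log2 change of -0.10 (SE 0.06, 95% interval -0.24 to 0.03, limma adjusted p = 0.222). Suz12 (chromosome 11, 79993106 to 80034123, plus strand), which holds the complex together, had 5221, 5674 and 5457 normalised reads in WT and 4924, 5320 and 5063 in Runx1 KO, and the groups overlapped (log2 change -0.10, 95% interval -0.23 to 0.04, limma adjusted p = 0.278). Eed (chromosome 7, 89954654 to 89980983, minus strand), the subunit that reads the methyl mark, had 1688, 1714 and 1724 normalised reads in WT and 1493, 1676 and 1742 in Runx1 KO. Its libraries overlapped too, and Runx1 KO replicate 1 was the lowest of the 6 (log2 change -0.06, 95% interval -0.24 to 0.11, limma adjusted p = 0.554). As percentages, the intervals ran from -15.2% to 2.01% for Ezh2, from -14.9% to 3.00% for Suz12 and from -15.1% to 7.70% for Eed. Scaled to library totals, the small difference of Eed turned to 0.02.

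Ezh1, the catalytic subunit that remains in resting cells, leaned the other way without passing the test. Ezh1 (chromosome 11, 101191115 to 101226463, minus strand) had normalised read counts of 1286, 1061 and 1059 in WT and of 1396, 1357 and 1250 in Runx1 KO. WT replicate 1 reached above the lowest library labelled Runx1 KO, so the groups overlapped, with a log2 change of 0.24 (SE 0.10, 95% interval 0.01 to 0.46, limma adjusted p = 0.118). Without WT replicate 1 the adjusted p of limma was 0.0364, and scaled to library totals it was 0.0395. Set against each other, Ezh2 was 4.005 times as abundant as Ezh1 per kb in WT and 3.16 times in Runx1 KO. The log2 ratio of Ezh2 to Ezh1 was 1.62, 1.98 and 1.93 in WT and 1.37, 1.52 and 1.62 in Runx1 KO, a difference of -0.34. These ratios did not overlap, although the lowest WT value (1.624) and the highest Runx1 KO value (1.620) nearly met. The exact permutation test over the libraries, two-sided, gave p = 0.10, the smallest that 3 against 3 allows.

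Because EZH2 is known as a target of E2F factors in dividing cells, the cell cycle genes were set beside it. Of 28 such genes, 0 rose and 13 fell in limma, where 10.6% and 11.3% of all genes did, with a median log2 change of -0.27. Their summed level was 193175 to 222247 normalised reads in WT and 164525 to 184833 in Runx1 KO, and none was at 0 in all libraries. Their part in the values of Ezh2 and Ezh1 was not tested.

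The promoters of Ezh1 and Ezh2 are shown because these are the alternative catalytic subunits of PRC2, compared above. They span 250 bases before to 50 after the start site in RefSeq (GRCm38.p6), and are printed 5′ to 3′ on the strand of the gene. RefSeq entries were matched by symbol for 9 of the 10 genes, all except Cbx2. Capitals mark matches on either strand to TGTGGT or TGCGGT, the letters that RUNX proteins bind, and to TTTCCCGC, TTTGGCGC, TTTCGCGC or TTTGCCGC, which E2F proteins bind; no matches overlapped each other.
Ezh1, chr11:101226414-101226713, minus strand: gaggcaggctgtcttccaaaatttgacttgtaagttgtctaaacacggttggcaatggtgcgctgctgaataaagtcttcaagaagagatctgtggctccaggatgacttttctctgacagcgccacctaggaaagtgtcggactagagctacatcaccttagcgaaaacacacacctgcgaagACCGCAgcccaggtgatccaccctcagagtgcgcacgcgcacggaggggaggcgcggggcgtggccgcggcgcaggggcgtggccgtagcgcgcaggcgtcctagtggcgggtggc
Ezh2, chr6:47594981-47595280, minus strand: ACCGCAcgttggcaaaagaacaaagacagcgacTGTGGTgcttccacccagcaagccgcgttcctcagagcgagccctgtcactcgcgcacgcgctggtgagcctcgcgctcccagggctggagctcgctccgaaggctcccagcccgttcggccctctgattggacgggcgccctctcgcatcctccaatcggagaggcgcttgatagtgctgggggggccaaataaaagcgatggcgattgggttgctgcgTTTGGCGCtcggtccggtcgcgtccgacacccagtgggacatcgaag
The Ezh1 promoter held 1 RUNX match, 66 bases before the start. The Ezh2 promoter held 2 RUNX matches, at its far end and 217 bases before the start, and 1 E2F match (TTTGGCGC) just after the start. Of 32851 RefSeq promoter windows of 300 bases, 22.4% held a RUNX match and 2.26% an E2F match. Among the other genes, Asxl1 held 1 RUNX match and Suz12 1 E2F match, while the windows of Eed, Bmi1, Rnf2, Cbx7 and Cbx8 held neither. A match of letters is a description of the window and not a site of binding.

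The accessory subunits of PRC2, which steer the complex to its targets, gave 2 rises and 0 falls among 10 genes, or 20% called against the 21.9% of all genes. Epop, which ties PRC2 to elongin, had 237 ± 51.4 normalised reads in WT and 390 ± 43.2 in Runx1 KO (SD, n = 3) and rose by 0.73 on the log2 scale (SE 0.17, limma adjusted p = 0.0271). Lcorl rose by 0.27 (SE 0.07, limma adjusted p = 0.0287). The exons of Lcorl span 18.9 kb, and in these libraries the change moved with exon length: its median over all tested genes was -0.07 under 2 kb and 0.09 over 10 kb. Set against the WT mean, the medians of these classes were -0.10 and 0.14 in Runx1 KO replicate 2 and -0.10 and 0.12 in replicate 3. In Runx1 KO replicate 1 they were only -0.01 and 0.02. With each library's trend in exon length removed, the change of Lcorl was 0.11 and its limma adjusted p 0.292. Epop lost its call without WT replicate 1 or 2 or Runx1 KO replicate 2 or 3 (limma adjusted p up to 0.104). Lcorl kept its call without Runx1 KO replicate 1 and lost it without any of the other libraries (limma adjusted p up to 0.118).

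In PRC1, neither Rnf2 nor Bmi1, the catalytic pair, passed the test. Rnf2 (chromosome 1, 151458004 to 151500955, minus strand), the main ubiquitin ligase, had normalised read counts of 2540, 2261 and 2294 in WT and of 2519, 2493 and 2414 in Runx1 KO, with a log2 change of 0.07 (95% interval -0.09 to 0.22, limma adjusted p = 0.487). Bmi1 (chromosome 2, 18677018 to 18686629, plus strand) had 1795, 1873 and 1792 normalised reads in WT and 1932, 2079 and 1779 in Runx1 KO. The highest and the lowest of the 6 were both libraries labelled Runx1 KO (log2 change 0.08, 95% interval -0.09 to 0.25, limma adjusted p = 0.445). Ring1, the other ligase, had 743 ± 110 and 842 ± 58.5 normalised reads (SD, n = 3) and did not pass either (limma adjusted p = 0.291). Pcgf2, the gene of the alternative to BMI1 in this pair, was scarce, with 105, 108 and 153 normalised reads in WT and 160, 195 and 213 in Runx1 KO. Its groups did not overlap and its log2 change was 0.64 (SE 0.20), but it missed the threshold in limma (adjusted p = 0.0578) and passed in DESeq2 (adjusted p = 0.0489). In limma it passed scaled to library totals (adjusted p = 0.0458) and without WT replicate 3 (0.0327) or Runx1 KO replicate 1 (0.0470). Bmi1 was 13.4 times as abundant as Pcgf2 per kb in WT and 9.09 times in Runx1 KO. The log2 ratio of Bmi1 to Pcgf2 was 4.10, 4.12 and 3.55 in WT and 3.59, 3.41 and 3.06 in Runx1 KO. WT replicate 3 lay below Runx1 KO replicate 1, so the ratios overlapped (difference -0.56, exact permutation test, two-sided, p = 0.20).

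Among the CBX genes, which give canonical PRC1 its reader of the methyl mark, Cbx2 rose, and Cbx7 and Cbx8 did not pass the test. Cbx2 (chromosome 11, 119022962 to 119031270, plus strand), whose protein compacts chromatin, had normalised read counts of 410, 362 and 309 in WT and of 438, 554 and 582 in Runx1 KO. Every library labelled Runx1 KO was above every WT library, and Runx1 KO replicate 1 was the nearest to them. Cbx2 rose by 0.54 on the log2 scale (SE 0.15, 95% interval 0.18 to 0.90, limma adjusted p = 0.0439), and edgeR and DESeq2 called it too (adjusted p = 0.0405 and 0.0143). This call was marginal: leaving out WT replicate 2 or 3 or Runx1 KO replicate 2 or 3 ended it (limma adjusted p up to 0.146). It was also lost with the exon length trend removed (0.0506).

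Cbx7 (chromosome 15, 79915807 to 79971119, minus strand) had 415, 280 and 387 normalised reads in WT and 439, 372 and 431 in Runx1 KO, which overlapped. Its log2 change of 0.22 had a wide interval of -0.17 to 0.60 (limma adjusted p = 0.381), and was 0.04 without WT replicate 2, the lowest library. Cbx7 overlaps Apobec3 on the other strand, as Rnf2 overlaps Trmt1l. Over the 6 libraries together, Apobec3 had 31069 recovered reads and Trmt1l 9074. Per library, Cbx7 had 277 to 433 recovered reads and Rnf2 2241 to 2568, so the partner of Cbx7 was far more abundant than Cbx7 itself. Whether the authors' counting used the strand is not given in the sources used here, and without it reads of such partners cannot be told apart. Cbx8 (chromosome 11, 119036305 to 119040969, minus strand) had 299, 257 and 240 normalised reads in WT and 231, 276 and 283 in Runx1 KO. Its log2 change was -0.01, with an interval of -0.33 to 0.31 (limma adjusted p = 0.964), and its sign changed with TMM scaling and with scaling to library totals. The log2 ratio of Cbx7 to Cbx8 ran from 0.12 to 0.69 in WT and from 0.43 to 0.93 in Runx1 KO (difference 0.23, exact permutation test, two-sided, p = 0.50).

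**Figure D2:**
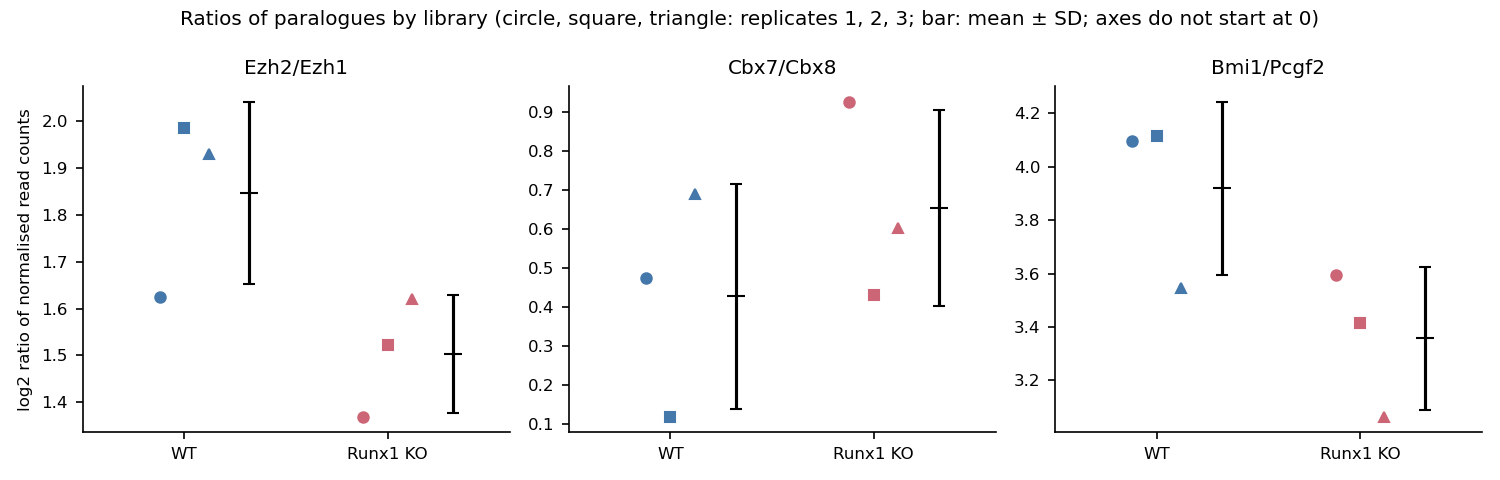
Log2 ratio of normalised read counts of paralogue pairs in each library, by group, with the mean ± SD beside the points and axes that do not start at 0. Ezh2/Ezh1 does not overlap between the groups, while Cbx7/Cbx8 and Bmi1/Pcgf2 do.

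Cbx6, a further CBX gene of canonical PRC1, rose, from 1574, 1525 and 1717 normalised reads in WT to 1947, 2279 and 2547 in Runx1 KO (log2 change 0.48, SE 0.11, limma adjusted p = 0.02). Its groups did not overlap, and it kept sign and call in all 11 alternatives with all libraries. It missed the threshold without WT replicate 1 or 2 or Runx1 KO replicate 2 or 3 (limma adjusted p up to 0.0785). Cbx2 and Cbx8 are neighbours on chromosome 11 with 5.03 kb between them, and of this pair Cbx2 rose and Cbx8 did not pass. Cbx6 and Cbx7 lie 81.1 kb apart on chromosome 15, and of these Cbx6 rose and Cbx7 did not pass.

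**Figure D3:**
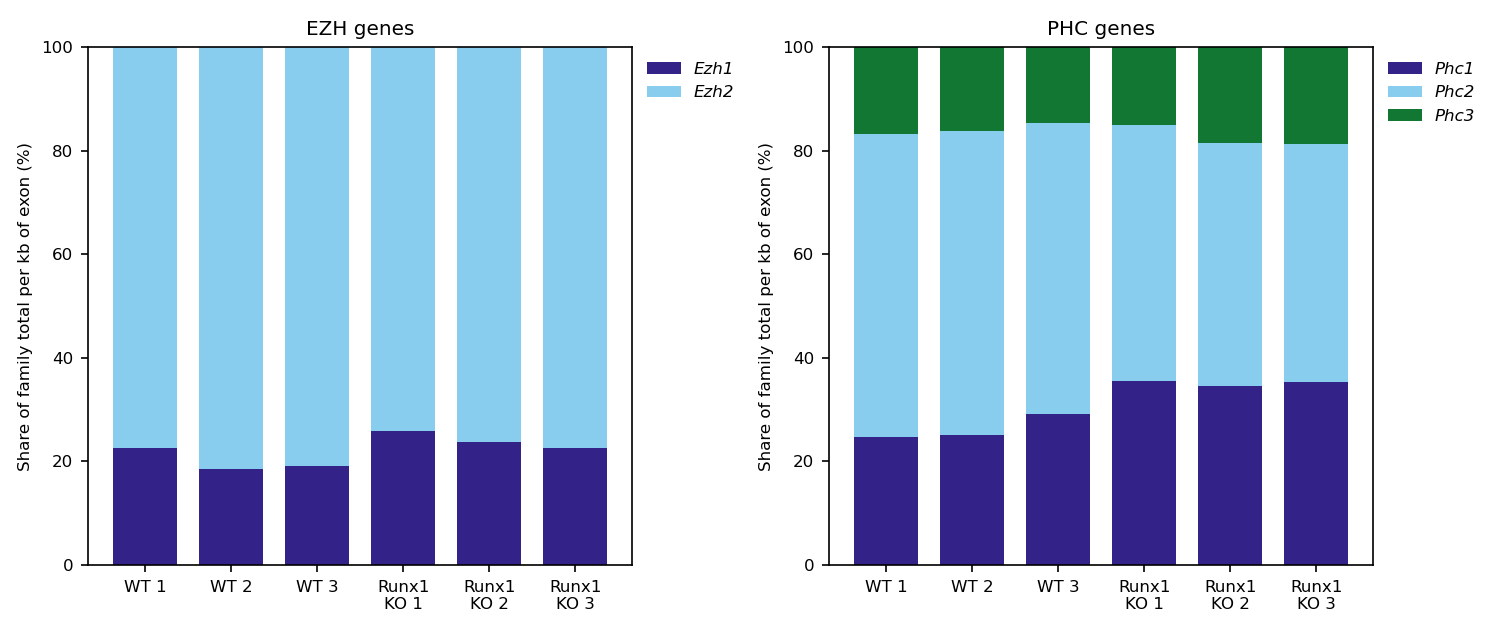
Share of each EZH gene (left) and each PHC gene (right) in the summed normalised reads per kb of exon of the genes shown, in percent, one stacked bar per library. The share of Phc1 is larger in the 3 libraries labelled Runx1 KO (34.5% to 35.6%) than in those labelled WT (24.7% to 29.1%), while that of Ezh1 nearly meets between the groups (22.60% to 25.8% against 18.5% to 22.56%).

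Among the other genes of canonical PRC1, 2 of 9 rose and 1 fell in limma, Cbx6 included, against 10.6% and 11.3% of all genes. Phc1, one of the polyhomeotic proteins that let PRC1 polymerise, rose from 976, 845 and 1146 normalised reads in WT to 1560, 1499 and 1512 in Runx1 KO (log2 change 0.63, SE 0.11, limma adjusted p = 0.00998). Its groups were far apart, and it kept its call without any single library (limma adjusted p up to 0.0436). Among Phc1, Phc2 and Phc3, Phc1 made up 26.3% ± 2.41 of the total per kb in WT and 35.2% ± 0.573 in Runx1 KO (SD, n = 3). The fall was that of Scml4, with 194, 76 and 107 normalised reads in WT and 55, 43 and 43 in Runx1 KO (log2 change -1.30, SE 0.34, limma adjusted p = 0.0363). WT replicate 1 was highest, and without it Scml4 missed the threshold (log2 change -0.94, limma adjusted p = 0.0545), as it did without WT replicate 3 or Runx1 KO replicate 2 or 3 (limma adjusted p up to 0.118).

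Marker genes of several cell types moved between the same libraries, where 10.6% of all genes rose and 11.3% fell. Of 14 stem and multipotent genes, 9 rose and 0 fell, and their summed level was 12267 to 16640.5 normalised reads in WT and 18707 to 22514 in Runx1 KO. Of 14 B lymphoid genes, 0 rose and 10 fell. Their sum was 39582, 9002 and 15030 normalised reads in WT replicates 1 to 3 and 4139, 1352 and 1406 in Runx1 KO replicates 1 to 3. This sum was highest in WT replicate 1, as were Scml4 above and Auts2, Kdm1b and Kdm6b below. So were Rnf2, Cbx8 and Bap1, with log2 changes of 0.07, -0.01 and -0.02, so this was not particular to genes that were lower. Of 14 neutrophil genes, 0 rose and 10 fell, with sums of 320989 to 420624 in WT and 161705 to 224645 in Runx1 KO. Of 12 T and NK lymphoid genes, 0 rose and 1 fell, with sums of 6865 to 7744 in WT and 4560 to 5091 in Runx1 KO. Of 9 tested megakaryocyte genes, 6 rose and 0 fell, and the sums of all 10 were 8284 to 8878 in WT and 9706 to 12227 in Runx1 KO. The monocyte list (10 genes) and the mast cell and basophil list (8 genes) each gave 1 rise and 5 falls, and 12 erythroid genes gave 0 rises and 4 falls. Their sums overlapped between the groups in all 3 lists, but a sum rests mostly on the most abundant genes. The median log2 changes were -0.56, -1.94 and -0.08 in the same order. None of the markers was at 0 in all libraries. The part of these cells in the values of Cbx2, Cbx6, Phc1 and Scml4, or of any other gene named here, was not tested.

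Variant PRC1 complexes, which carry RYBP or YAF2 in place of a CBX reader, gave 2 rises and 1 fall among 20 genes, or 15% called against the 21.9% of all genes. Mga, the DNA-binding scaffold of the PCGF6 complex, rose by 0.52 (SE 0.11, limma adjusted p = 0.0178), from 3495 ± 148 to 5062 ± 739 normalised reads (SD, n = 3). Runx1 KO replicate 1, at 4208, lay nearer to WT than the others at 5496 and 5481. Kdm2b, which brings a PRC1 complex to CpG islands, rose by 0.26 (SE 0.07, limma adjusted p = 0.0316). With the exon length trend removed, Mga kept its call (0.40, limma adjusted p = 0.0146) and Kdm2b did not (0.17, limma adjusted p = 0.0883). Both lost their call without WT replicate 3 or Runx1 KO replicate 2 or 3, Mga also without WT replicate 2 and Kdm2b without WT replicate 1 (limma adjusted p up to 0.0718 and 0.127). Auts2, a subunit of a PCGF5 complex, was the fall, from 158, 68 and 85 normalised reads in WT to 33, 26 and 23 in Runx1 KO (log2 change -1.81, SE 0.34, limma adjusted p = 0.0124). It missed the threshold without Runx1 KO replicate 2 (limma adjusted p = 0.0519). Over all 4 lists of further Polycomb subunits, 10 of 48 tested genes (20.8%) were called, 7 higher and 3 lower, close to the 21.9% of all genes, with a median log2 change of 0.05. The count was 1 without Runx1 KO replicate 2, 2 without Runx1 KO replicate 3, 6 without WT replicate 1 or 3, 5 without WT replicate 2 and 14 without Runx1 KO replicate 1.

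**Figure D4:**
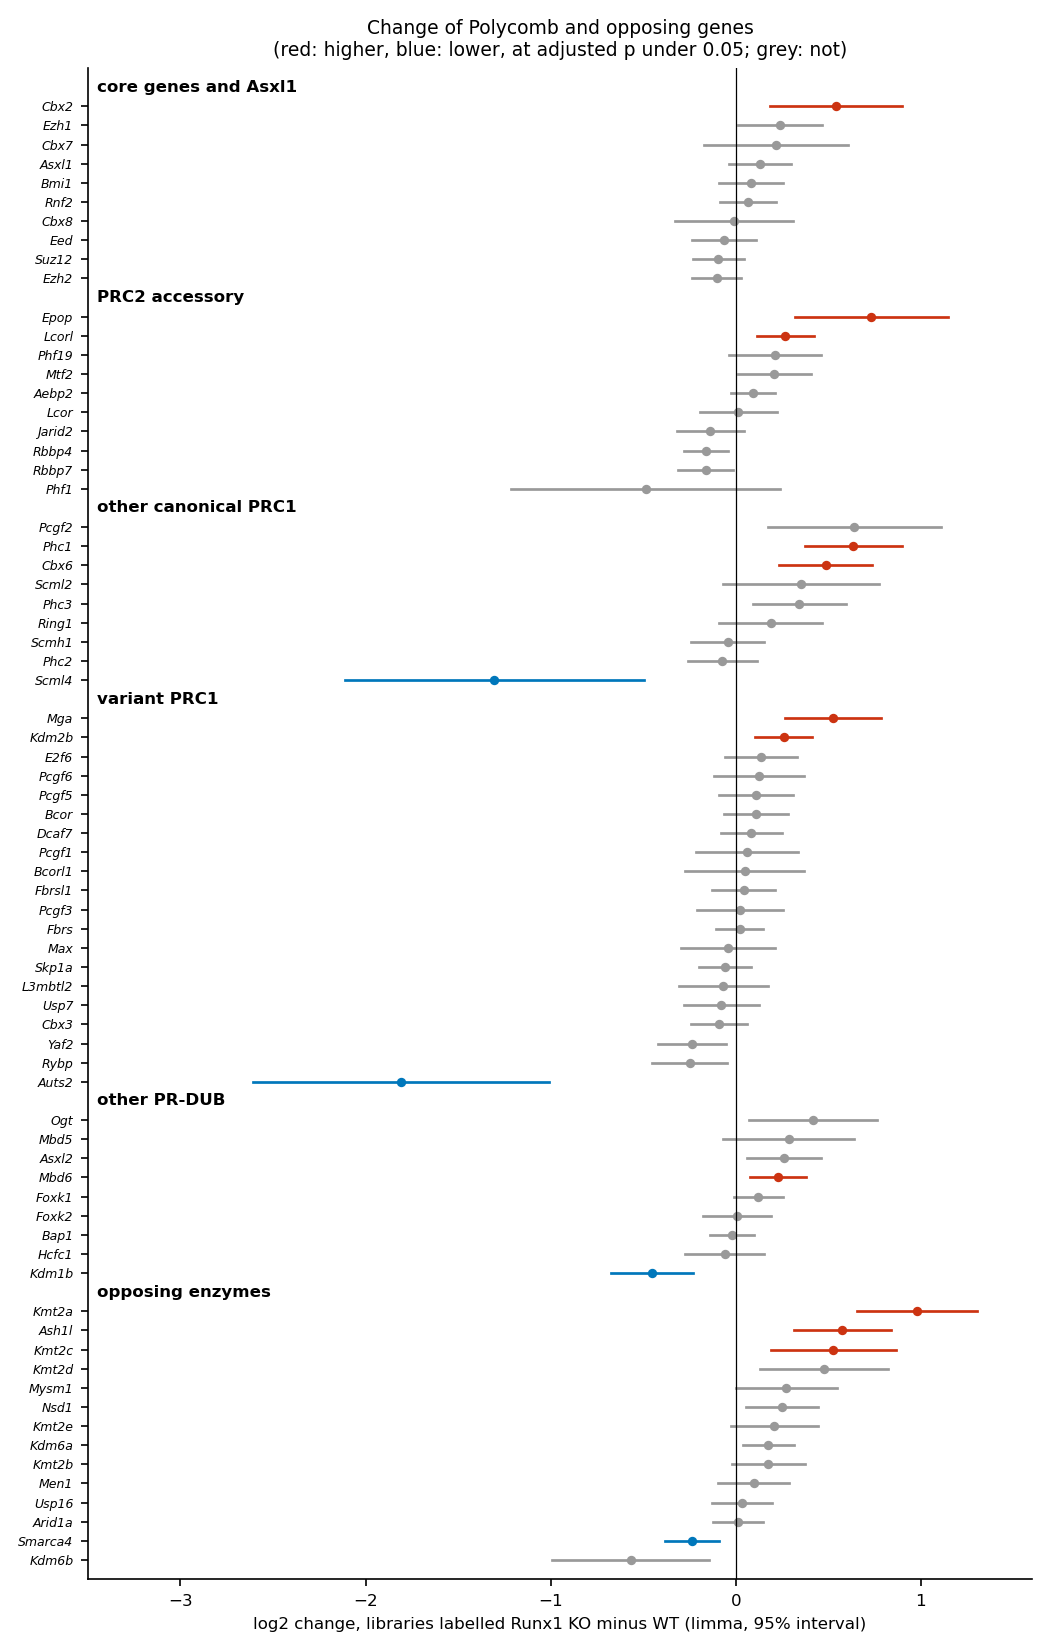
Log2 change of each tested gene in 6 lists, with its 95% interval from limma; red marks higher and blue lower genes at an adjusted p under 0.05, and grey the rest. Most intervals of the core genes and Asxl1 include 0, while called genes are scattered over the other lists in both directions.

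In PR-DUB, Asxl1 (chromosome 2, 153345829 to 153404007, plus strand) had normalised read counts of 4412, 3979 and 4007 in WT and of 4205, 4685 and 4690 in Runx1 KO. WT replicate 1 lay above Runx1 KO replicate 1, and Asxl1 did not pass (log2 change 0.13, SE 0.07, 95% interval -0.04 to 0.30, limma adjusted p = 0.221). As a percentage, this interval ran from -2.45% to 23.0%. Its paralogue Asxl2 had 2754, 2791 and 2542 normalised reads in WT and 2893, 3325 and 3501 in Runx1 KO, groups that did not overlap, with a log2 change of 0.26 (SE 0.08, limma adjusted p = 0.0654). DESeq2 called it (adjusted p = 0.0318), as did limma after TMM scaling (0.0490), scaled to library totals (0.0225) and without Runx1 KO replicate 1 (0.0192). With the exon length trend removed its change was 0.13 (limma adjusted p = 0.189). Asxl1 made up 76.6% ± 1.14 of the Asxl1 and Asxl2 total per kb in WT and 75.0% ± 0.77 in Runx1 KO (SD, n = 3). Bap1, the deubiquitinase itself, had 3440 ± 82.0 and 3386 ± 43.7 normalised reads and did not pass (log2 change -0.02, 95% interval -0.14 to 0.10, limma adjusted p = 0.773). Of the 9 other genes tested, 22.2% were called, against 21.9% of all genes: 1 rose, Mbd6 (0.23, SE 0.06, limma adjusted p = 0.0452), and 1 fell, the histone demethylase gene Kdm1b (-0.45, SE 0.09, limma adjusted p = 0.0178). Mbd6 kept its call without WT replicate 1 and lost it without any of the other libraries (limma adjusted p up to 0.150). It also lost it with the exon length trend removed (0.0613) and with no filter (0.0549). Kdm1b lost its call without Runx1 KO replicate 2 or 3 (limma adjusted p up to 0.0653).

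Enzymes that oppose Polycomb silencing gave 3 rises and 1 fall among 14 genes, or 28.6% called against the 21.9% of all genes. Kmt2a, the histone H3 methyltransferase of the trithorax group known as MLL, rose most, from 4525, 4417 and 4141 normalised reads in WT to 6789, 9746 and 9571 in Runx1 KO (log2 change 0.98, SE 0.14, limma adjusted p = 0.00506). All 3 libraries labelled Runx1 KO were above WT, replicate 1 the least, and the call held without any single library. Ash1l and Kmt2c, further methyltransferases, rose by 0.58 (SE 0.11, limma adjusted p = 0.0136) and 0.53 (SE 0.14, limma adjusted p = 0.0394). These transcripts are long, with exons of 16.7 kb for Kmt2a, 14.8 kb for Ash1l and 20.3 kb for Kmt2c. With the exon length trend removed, the rises were 0.84, 0.45 and 0.36, all still called. Ash1l and Kmt2c lost their calls without Runx1 KO replicate 2 or 3, and Kmt2c also without WT replicate 2 or 3 (limma adjusted p up to 0.0587 and 0.133). Smarca4, the ATPase of the BAF chromatin remodeller, fell by 0.24 on the log2 scale (SE 0.06, limma adjusted p = 0.0363) and lost its call without any of the 6 libraries (limma adjusted p up to 0.109) and when scaled to library totals (0.0788). The demethylases that remove the PRC2 mark did not pass: Kdm6a had 2613 ± 91.9 and 2953 ± 126 normalised reads (limma adjusted p = 0.0744), and Kdm6b 2035 ± 516 and 1353 ± 181 (limma adjusted p = 0.0632). DESeq2 called Kdm6b, with an adjusted p of 0.00971. WT replicate 1 held the most Kdm6b, and without it the log2 change went from -0.57 to -0.37 (limma adjusted p = 0.0902). Kdm6a passed in limma when scaled to library totals (adjusted p = 0.0186).

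Genes that Polycomb is known to silence were mostly not listed in the tables, whose least covered gene had 10 reads in total. Of 42 such genes, 10 were listed and 5 passed the filter. Cdkn2a, the cell cycle inhibitor locus that BMI1 is known to repress, was not among the listed genes and was not analysed here. Pax8 was the 1 call, and it fell, with 70, 113 and 53 normalised reads in WT and 15, 13 and 14 in Runx1 KO (log2 change -2.36, SE 0.31, limma adjusted p = 0.00381). Of the 5 tested genes, 20% were called, against 21.9% of all genes, and 0 were called higher, against 10.6% of all genes. By sign alone, 1 of the 5 had a log2 change above 0 and 4 below, with a median SE of 0.32.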

How the data were processed

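Poly-A RNA of 6 libraries was measured. Per the submitters' processing notes, HISAT2 and HTSeq 0.9.1 and the builds mm10 and GRCm38 were used; the annotation and strand setting are not given in the sources used here. The deposited values are a signal: gene read counts that the authors divided by one size factor per library. This unit was worked out from the values, since 100% of the values in each file were whole multiples of 1 value per library (tolerance 0.001) and recomputed median-of-ratios size factors matched. These multiples are the recovered reads. A floor of 3 reads corresponds to 2.88 to 3.14 normalised reads, for counting error only.

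Symbols came from a GENCODE table that matched 20077 of 20097 identifiers, and positions and exon lengths from GENCODE M21 (GRCm38). The main test was limma 3.58.1 (mean trend) on log2(normalised read count + 1), group as the only term, Benjamini-Hochberg over the 15410 genes that passed filterByExpr (minimum count 10, minimum total 15); 4687 genes were left out. All log2 changes and intervals are on that scale. Alternatives were edgeR 4.0.16 and DESeq2 1.42.0 on recovered reads, other scalings, pseudocounts and filters, the replicate block and leaving out each library. Removal of the exon length trend was added after seeing the data. Fits were tested on simulated data. The 10 genes and all lists were chosen with earlier results of these data known. Named genes are the 10, Runx1, up to 4 called genes of largest change per Polycomb list, and 7 fixed subunits and targets; 1 further gene of this rule and of a list is not reported here. Kit was added to check the sort. For each of the 10 that was called, the 2 genes of most similar pattern were named, among genes with a mean of at least 100 normalised reads.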

Additional observations from a re-analysis of the deposited data

How the results depend on the processing

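Over the 11 alternatives that kept all libraries, 3182 to 3911 genes were called against 3370. Of the 10 genes, 1 was called in 8 of these, 2 when scaled to library totals (Cbx2 and Ezh1), and 0 with the replicate block and with the exon length trend removed. Scaling to library totals gave 16 further Polycomb subunits against 10. With a library left out, 1367 to 3597 genes, 0 to 2 of the 10 and 1 to 14 further subunits were called. Signs changed where the change was near 0. Eed, at -0.06, was 0.0175 with library totals and ran from -0.11 to 2.4e-04 with a library left out, above 0 without Runx1 KO replicate 1. Cbx8, at -0.01, was 0.00625 with TMM, 0.072 with library totals, and ran from -0.0796 to 0.0808 with a library left out, at 0.0784 and 0.0808 without WT replicate 1 and Runx1 KO replicate 1. Bap1, at -0.02, was 0.0595 with library totals. The cause was not tested.

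Same-numbered libraries deviated from their group means with correlations of 0.29, 0.13 and -0.01, so the numbers are not taken to pair the libraries. WT replicate 1 correlated best with its own number, and replicates 2 and 3 did not. With the replicate block 3843 genes and 12 further subunits were called, and the limma adjusted p was 0.0661 for Cbx2 and 0.0572 for Kmt2c, which lost their calls, and 0.0334 for Pcgf2 and 0.00666 for Kdm6b, which gained them. The ratio differences were -0.34, 0.23 and -0.56 in pairs as well, where an exact sign-flip test gave p = 0.25, 0.50 and 0.25 for Ezh2/Ezh1, Cbx7/Cbx8 and Bmi1/Pcgf2 and cannot go below 0.25. With a library left out, they ran from -0.45 to -0.27, from 0.07 to 0.36 and from -0.75 to -0.42.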

Other observations

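Over the 6 libraries, the 2 genes with the pattern most like that of Cbx2, of 11199 compared, were 4932438A13Rik and Fsd1l. Likeness was the root mean square difference of log2 values centred on each gene's mean, at 0.0637 and 0.0659. 4932438A13Rik had normalised read counts of 4049, 3338 and 2988 in WT and 4014, 5289 and 5019 in Runx1 KO, and Fsd1l 207, 166 and 155 in WT and 222, 263 and 307 in Runx1 KO. Neither passed the limma threshold (adjusted p = 0.0544 and 0.0516).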
